A study of Mus musculus with 12 samples.

Results

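The mitochondrial ribosomal protein genes were followed in macrophages sorted from mouse bone marrow. Members were all rows of the deposited count table whose symbol starts with Mrpl or Mrps and a digit, with pseudogene names left out. The rule found 76 genes among 23420 gene rows, 47 of them Mrpl (large subunit) and 29 Mrps (small subunit). The rule uses names and no measured value, although the gene family was picked with earlier results of these data known.

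RNA sequencing covered 12 libraries from 2 mice, numbered 7 and 19, of strain C57BL/6. In each mouse the tibia had been treated with mesenchymal stromal cells (MSC) and the femur of the same animal was left untreated, and macrophages from each bone were read as 3 libraries. The labels call the tibia cells MSC-educated macrophages and name bone marrow nucleated cells as the source of the sort. The series title speaks of leukaemia, but the sample labels name no leukaemia model, no MSC dose and no time after treatment. Since every tibia was treated and no femur was, treatment and bone cannot be told apart. Nothing in the labels says that the 3 libraries of a bone were sorted separately, so p-values here measure the spread between libraries, which may be technical.

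Mitochondria carry their own ribosome, which translates the few proteins encoded by mitochondrial DNA, all of them subunits of the respiratory chain and ATP synthase. Its ribosomal RNAs come from the mitochondrial genome, while every one of its proteins is encoded in the nucleus, made in the cytosol and imported. Some of these proteins descend from bacterial ribosomal proteins and others are found only in mitochondria. The letters l and s in the symbols stand for the large subunit, which forms peptide bonds, and the small subunit, which reads the messenger RNA. Structures of the mammalian mitoribosome later placed Mrps30 and Mrps18a in the large subunit, and Mrps36 is now counted with the oxoglutarate dehydrogenase complex and not with the ribosome.

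The members are spread over 17 chromosomes, with 10 on chromosome 11, 8 on chromosome 17 and 7 on chromosome 6. RefSeq promoters (build GRCm38.p6, 250 bases before to 50 after the start) were found for 67 of the 76. A start of another gene on the opposite strand lay within 1000 bases upstream in 25 of these 67 (37.3%). The shares were 20.3% of the 8826 tested genes with a promoter and 12.3% of all 27025 genes with a promoter. A gene counted when any of its promoters had the feature. Motifs were searched as letters on both strands. CCGGAAG, the core bound by ETS factors such as GABP, was present in 24 members (35.8%), against 20.9% of tested genes and 9.93% of all genes with a promoter. AAGATGG, the YY1 core, was present in 13 (19.4%, against 8.77% and 7.28%). CATGCGC, part of the site of nuclear respiratory factor 1, was present in 8 (11.9%, against 8.25% and 4.41%), and the E-box CACGTG in 5 (7.46%, against 11.9% and 8.09%). A match describes letters and is neither a bound site nor a cause.

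The promoters of Mrps11, Mrps12 and Mrpl22 are shown to illustrate these features, each 5′ to 3′ on the gene's own strand with motif matches in capitals. Mrps11 (chr7:78782881-78783180, plus strand) starts 42 bases from another member, Mrpl46, which is read the other way. Mrps12 (chr7:28741772-28742071, minus strand) starts 147 bases from Sars2, the mitochondrial seryl-tRNA synthetase. Mrpl22 (chr11:58171414-58171713, plus strand) was among the members higher in the tibia of mouse 7.
Mrps11: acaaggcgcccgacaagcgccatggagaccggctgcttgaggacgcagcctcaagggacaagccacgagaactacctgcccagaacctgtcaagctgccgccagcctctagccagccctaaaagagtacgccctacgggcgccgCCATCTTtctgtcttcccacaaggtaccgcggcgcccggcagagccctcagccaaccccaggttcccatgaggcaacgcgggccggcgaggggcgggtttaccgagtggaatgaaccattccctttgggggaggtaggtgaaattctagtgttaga
Mrps12: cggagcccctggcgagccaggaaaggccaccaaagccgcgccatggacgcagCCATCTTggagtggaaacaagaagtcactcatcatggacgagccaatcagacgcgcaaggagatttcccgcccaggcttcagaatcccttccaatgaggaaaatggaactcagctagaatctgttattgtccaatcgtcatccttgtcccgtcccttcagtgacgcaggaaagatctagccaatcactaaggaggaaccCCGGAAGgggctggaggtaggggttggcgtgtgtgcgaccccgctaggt
Mrpl22: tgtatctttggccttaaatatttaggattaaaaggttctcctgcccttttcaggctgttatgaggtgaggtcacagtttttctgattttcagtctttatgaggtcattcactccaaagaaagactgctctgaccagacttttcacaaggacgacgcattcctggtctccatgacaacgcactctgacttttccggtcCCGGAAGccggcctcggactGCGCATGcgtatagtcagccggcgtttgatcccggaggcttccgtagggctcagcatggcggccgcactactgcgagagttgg
In Mrps11 the capitals mark 1 YY1 core read on the other strand. In Mrps12 they mark 1 such YY1 core and 1 ETS core. In Mrpl22 they mark 1 ETS core and 1 nuclear respiratory factor 1 part site read on the other strand.

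Total counts per library ran from 9773455 (mouse 19, femur 1) to 14869150 (mouse 19, tibia 1). All 76 members passed the filter on low counts and were tested among 11806 genes, with 437 to 13907 counts per member over the 12 libraries. Macrophage genes were abundant: Lyz2, the lysozyme of myeloid cells, averaged 14501 CPM (counts scaled to a common library size) in the femur and 13380 in the tibia, and Csf1r, the receptor for macrophage colony-stimulating factor, 946 and 955. Markers of mature neutrophils were abundant as well, with a summed level of 15886 to 27210 CPM in the femur and 16166 to 28807 in the tibia for 8 genes, close to that of the 10 macrophage and monocyte genes (17630 to 21081 and 17214 to 19265). Erythroid, B cell, T and NK cell, dendritic, megakaryocyte and stromal marker sums stayed between 2.47 and 77.2 CPM. Hba-a1, Hba-a2, Hbb-b1 and Hbb-b2 were listed at 0 and add nothing to the erythroid sum. The cytosolic ribosomal protein gene Rpl26 and the complex I gene Ndufs5 were listed at 0 too, so a 0 need not mean absence.

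The mitoribosome genes were all detected, at levels that differed widely between genes. Their mean level over the 12 libraries ran from 2.78 CPM (Mrps6) to 89.7 CPM (Mrpl33), with a median of 26.6, and the members fell between percentiles 13.8 and 76.9 of all genes tested. The median was 28.5 CPM for the large subunit and 23.0 CPM for the small. The 5 highest members were Mrpl33 at 89.7, Mrpl4 at 65.7, Mrps15 at 61.1, Mrpl10 at 56.6 and Mrpl18 at 55.1 CPM. All but Mrps15 belong to the large subunit; Mrpl10 is a protein of the ribosomal stalk. The 5 lowest were Mrps6 at 2.78, Mrps28 at 7.41, Mrpl47 at 7.92, Mrpl55 at 10.2 and Mrps18b at 10.6 CPM.

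Per kilobase of exon length, which allows a rough comparison between genes, Mrpl33 stood apart at 188 CPM per kb. The length joins the exons of all annotated transcripts of a gene, so it can exceed that of the transcript expressed. Mrpl52 followed at 78.5 and Mrps21 at 72.6, and the lowest was Mrpl47 at 2.35. Mrpl33 shares exon bases with Gm43809, and Mrpl47 with Actl6a and Ndufb5. The effect of such overlaps on these levels was not tested. The order changed most for genes with long exons: Mrpl17 had an exon length of 7.605 kb and a level of only 3.99 CPM per kb. The median was 19.7 CPM per kb for the large subunit and 11.8 for the small. Mrpl33 was high in every library, at 83.0, 78.6 and 86.0 CPM in the femur of mouse 7 and 94.7, 101 and 97.1 in that of mouse 19. In the tibia it was at 87.0, 75.6 and 82.9 CPM in mouse 7 and 99.0, 104 and 88.6 in mouse 19. The bones overlapped in both mice, and the means were 90.0 ± 8.74 CPM in the femur and 89.4 ± 10.3 CPM in the tibia (SD, n = 6; log2 change -0.01 ± 0.05, adjusted p = 0.932). The coefficient of variation over the 12 libraries had a median of 8.91% among members, against 10.7% among the 7454 tested genes in the same range of CPM.

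**Figure D1:**
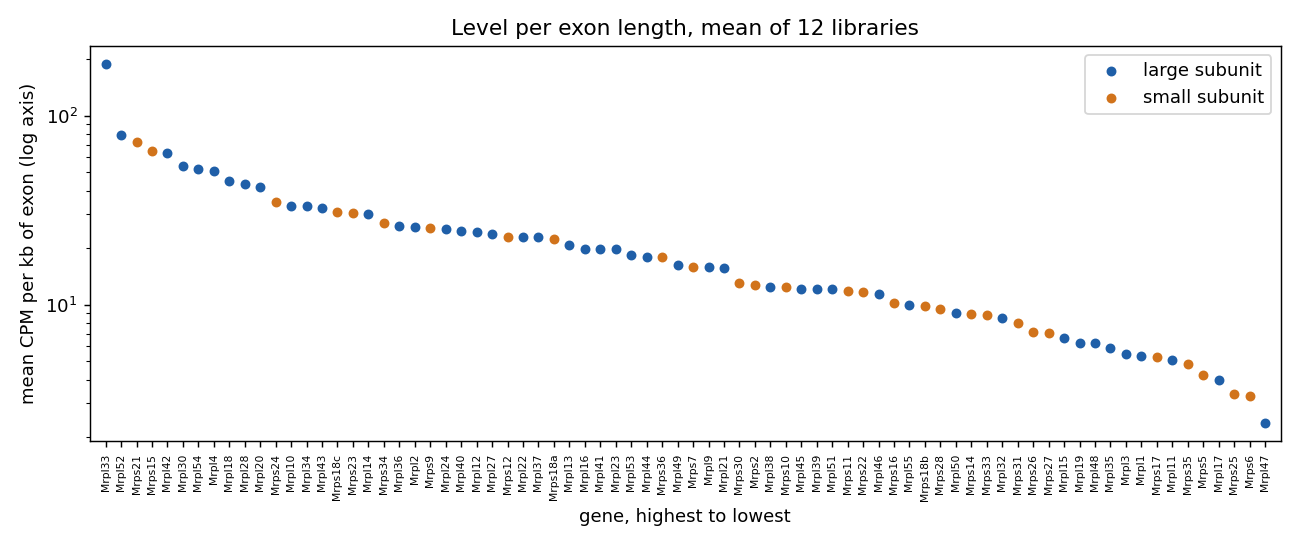
Mean level of each of the 76 members over the 12 libraries in CPM per kilobase of exon, ordered by level on a log axis and coloured by subunit. Mrpl33 stands apart at 188 CPM per kb and Mrpl47 is lowest at 2.35.

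Tibia and femur were then compared over both mice. Most members had a slightly higher estimate in the MSC-treated tibia, and 1 of 76 passed the test: Mrpl54, a large-subunit protein (edgeR quasi-likelihood test with Benjamini-Hochberg adjustment over all genes tested, adjusted p under 0.05). That is 1.32% of members, against 3.51% of all genes tested that were called higher, and no member was called lower, against 3.69%. The median log2 change of the 76 members was 0.09, with the middle 50% between 0.04 and 0.13, while the median of all genes tested was 0.00. A log2 change above 0 was found in 67 members (88.2%), against 49.2% of all genes. At an unadjusted p under 0.05, 16 members (21.1%) were higher and 0 lower, against 9.6% and 11.2% of all genes. In bulk libraries, more cells of a type and more RNA per cell cannot be told apart.

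The median standard error of a member's log2 change was 0.07, the same as that of all genes tested, and the 76 changes ran from -0.07 (Mrpl24) to 0.34 (Mrps6). With 2 standard errors added, a change of 0.5 on the log2 scale was exceeded by 1 member, Mrps6, and a change of 1 by none. Mrps6, a homologue of a bacterial small-subunit protein, had the fewest counts: 2.92, 2.81 and 3.18 CPM in the femur of mouse 7 and 3.56, 4.23 and 2.85 in its tibia. In mouse 19 it was at 2.06, 2.15 and 1.65 CPM in the femur and 2.70, 3.61 and 1.70 in the tibia. The bones overlapped in both mice, and the change of 0.34 ± 0.20 (SE) did not pass (adjusted p = 0.337).

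**Figure D2:**
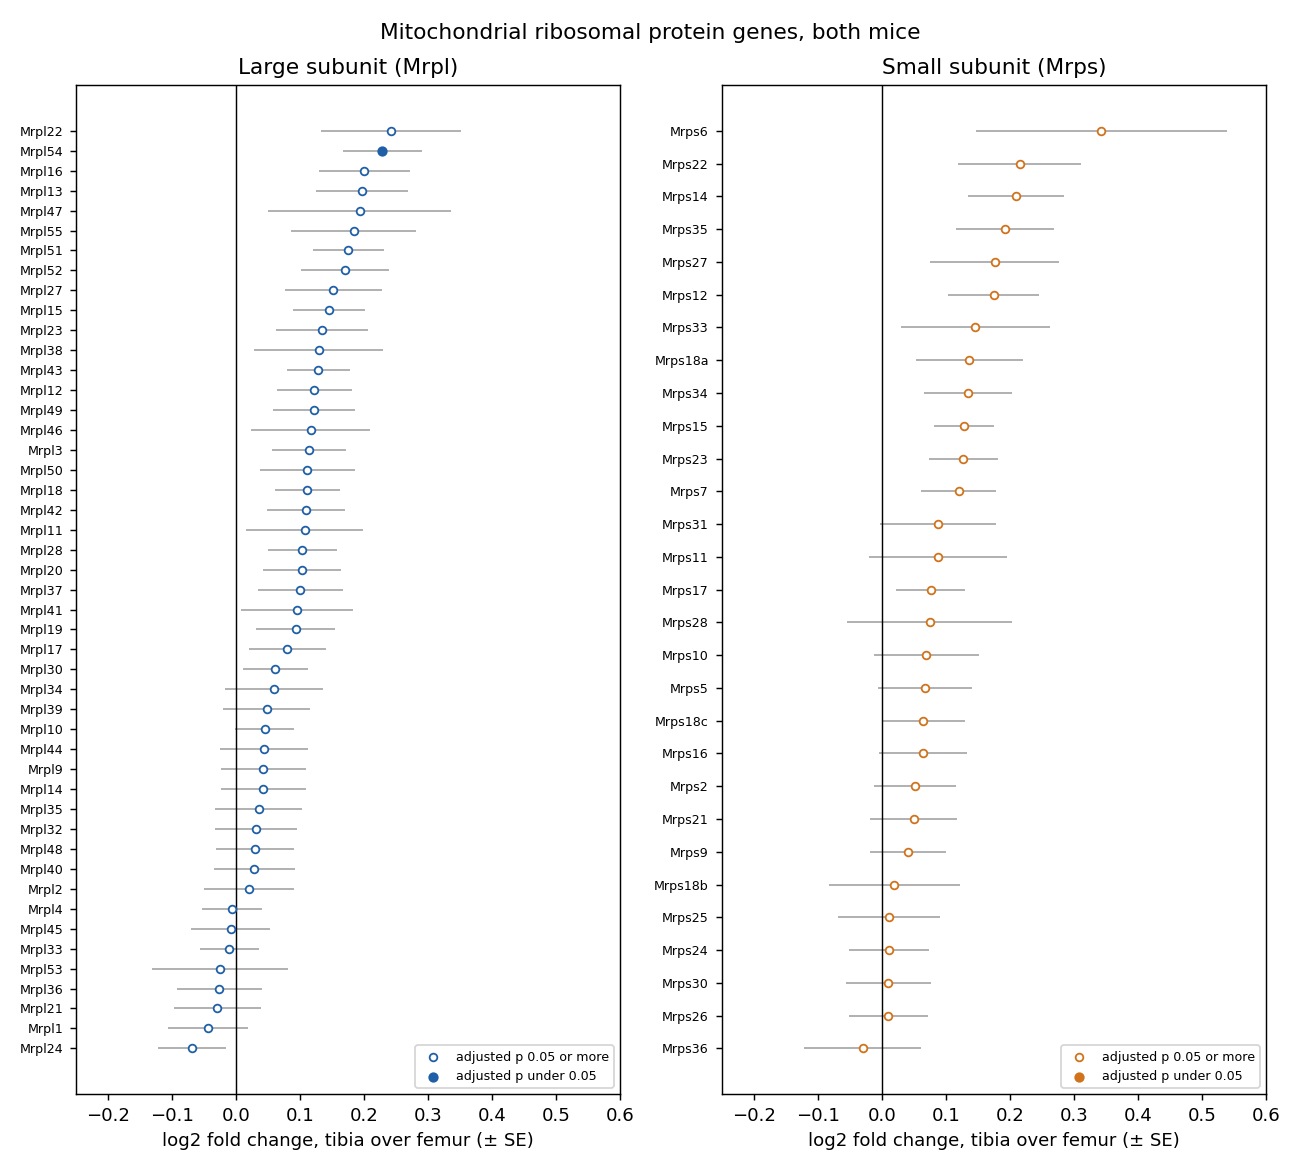
Log2 change, tibia over femur in both mice, of each of the 76 members with its standard error, ordered by size, with the large subunit on the left and the small on the right; a filled point passed the adjusted test. The changes run from -0.07 to 0.34 and 67 lie above 0, with Mrpl54 the only one called.

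Large and small subunit had similar changes. The median log2 change was 0.10 for the 47 large-subunit genes (-0.07 to 0.24) and 0.08 for the 29 small-subunit genes (-0.03 to 0.34). A change above 0 was found in 39 of 47 large-subunit genes (83.0%) and 28 of 29 small-subunit genes (96.6%), the exception being Mrps36. Among all genes tested the share was 49.2%. In the large subunit 1 gene was called higher (2.13%) and 10 were higher at an unadjusted p under 0.05 (21.3%). In the small subunit 0 were called and 6 were higher unadjusted (20.7%). The shares of all genes tested were 3.51% called higher and 9.6% higher unadjusted. With Mrps30 and Mrps18a moved to the large subunit and Mrps36 left out, as the structures place them, the medians remained 0.10 (49 genes) and 0.08 (26 genes), and all 26 small-subunit genes were above 0.

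The summed level of each subunit was also read library by library, and its mean was slightly higher in the tibia of each mouse. The 47 large-subunit genes together were at 1381, 1324 and 1422 CPM in the femur of mouse 7 and at 1417, 1485 and 1489 in its tibia. In mouse 19 they were at 1441, 1464 and 1436 CPM in the femur and 1539, 1540 and 1453 in the tibia. The bones overlapped by 1 library pair in each mouse, femur 3 against tibia 1 in mouse 7 and femur 2 against tibia 3 in mouse 19. The 29 small-subunit genes were at 659, 613 and 691 CPM in the femur of mouse 7 and 709, 708 and 709 in its tibia, with no overlap. In mouse 19 they were at 694, 713 and 698 CPM in the femur and 727, 761 and 709.9 in the tibia, and tibia 3 lay below femur 2. The ratio of mean tibia to mean femur level was 1.05 for the large subunit (1.06 in mouse 7, 1.04 in mouse 19) and 1.06 for the small (1.08 and 1.04). The large subunit's sum was 2.05 to 2.16 times the small one's in the 6 femur libraries (median 2.07) and 2.00 to 2.12 times in the 6 tibia libraries (median 2.07), so the balance of the subunits overlapped between bones.

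**Figure D3:**
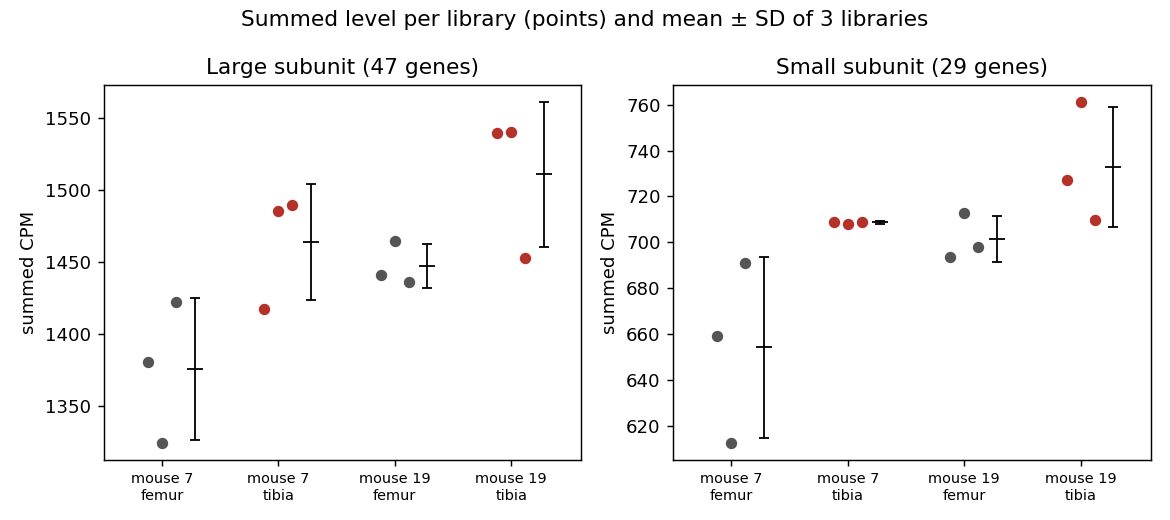
Summed CPM of the large-subunit and small-subunit genes in each library (points) by mouse and bone, with the mean of 3 libraries and its SD; the vertical axes do not start at 0. The small-subunit sum in mouse 7 is the one case where tibia (708 to 709) and femur (613 to 691) do not overlap.

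Genes outside the ribosome were called as well. Over both mice 3.51% of all genes tested were called higher and 3.69% lower. The summed level of 7 granulocyte precursor genes was 726 to 1510 CPM in the femur and 1041 to 1834 in the tibia, a ratio of 1.61 in mouse 7 and 1.20 in mouse 19, and 5 of the 7 were called higher. Among them were Mpo, Elane and Prtn3, granule enzymes of early granulocytes, with log2 changes of 0.53, 0.51 and 0.44. The macrophage and monocyte sum, most of which is Lyz2, had ratios of 0.909 in mouse 7 and 0.989 in mouse 19. Taken gene by gene, 2 of these 10 genes were called higher and 3 lower in mouse 7 (median log2 change -0.07), 5 higher and 1 lower in mouse 19 (median 0.19). The shares of all genes were 4.37% and 5.36% in mouse 7, 2.96% and 2.21% in mouse 19. With both mice together, 2 of the 10 were called higher and 1 lower. Mertk, a receptor for the uptake of dead cells, was higher over both mice, and Lyz2 was lower. The mature neutrophil sum had ratios of 1.02 and 1.12 (2 higher and 2 lower of 8). Sums of rarer types were lower in the tibia of both mice for erythroid genes (0.642 and 0.651, 2 of 6 tested called lower), dendritic cell genes (0.668 and 0.787, 2 of 6 lower) and B cell genes (0.722 and 0.783, 1 of 6 lower). The T and NK cell ratios were 1.14 and 1.04 (0 of 3 called), the megakaryocyte ratios 1.06 and 1.27 (1 of 3 higher) and the stromal ratios 0.614 and 1.33 (0 of 3 called). The 30 cell cycle genes had a ratio of 1.13 in mouse 7 and 0.931 in mouse 19, while the summed members had 1.07 and 1.04. The part of these other genes in the members' shift was not tested.

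Mrpl54 lies at chr10:81264722-81266926 (mm10) and shares no exon with another annotated gene. It was at 26.6, 25.5 and 26.0 CPM in the femur of mouse 7 and at 32.8, 36.2 and 28.9 in its tibia. In mouse 19 it was at 31.5, 33.3 and 31.5 CPM in the femur and 35.8, 35.7 and 33.9 in the tibia. In both animals the tibia values were all higher than the femur values, which held for no other member (1.32%, against 2.44% of all genes tested). In 0 members did all 6 tibia libraries lie above all 6 femur libraries, against 0.966% of all genes. The mean rose from 29.0 ± 3.42 to 33.9 ± 2.77 CPM (SD, n = 6 libraries each), a log2 change of 0.23 ± 0.06 (SE, adjusted p = 0.0251). The change was 0.33 in mouse 7 (adjusted p = 0.0100) and 0.13 in mouse 19 (adjusted p = 0.453), and the difference between mice did not pass (adjusted p = 0.460). The call over both mice was lost without any 1 of 5 mouse 7 libraries: tibia 1 (adjusted p = 0.0524), tibia 2 (0.0785), femur 1 (0.0520), femur 2 (0.0645) or femur 3 (0.0563). It was also lost with no mouse term in the model (adjusted p = 0.267) and with counts summed to 1 value per animal and bone (adjusted p = 0.358). In the summed fit 6 of 76 members were higher at an unadjusted p under 0.05, against 603 of 11806 genes (5.11%).

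Among the 12 members with the smallest adjusted p, the other 11 did not pass, and 9 of them lay above the femur mean of their own mouse in 6 of 6 tibia libraries. Since the 12 were picked by this same comparison, their count cannot be set against all genes. Over all members, 18 (23.7%) lay above that mean in 6 of 6 tibia libraries, against 8.26% of all genes tested. Mrpl51, a mitochondria-specific large-subunit protein (chr6:125192200-125194392), came next. It was at 35.0, 35.0 and 40.1 CPM in the femur of mouse 7, 41.1, 41.2 and 41.5 in its tibia, 37.1, 41.3 and 43.8 in the femur of mouse 19 and 48.7, 42.6 and 47.8 in its tibia. The bones separated in mouse 7 and overlapped by 1 library pair in mouse 19, and the change of 0.18 ± 0.06 just missed the threshold (adjusted p = 0.0534). Exons of Mrpl51 overlap the microRNA gene Mir3098, whose reads could not be separated from its own, since the sources used here do not give the strand setting of the counting. In all, 25 of the 76 members share exon bases with another annotated gene.

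Large-subunit members with bacterial homologues among these 12 were Mrpl16, Mrpl13 and Mrpl15. Mrpl16 had a lowest, median and highest level of 18.9, 20.9 and 24.0 CPM in the femur and 21.3, 24.9 and 27.6 in the tibia (0.20 ± 0.07, adjusted p = 0.0909). Mrpl13 was at 19.8, 23.1 and 27.9 CPM in the femur and 25.6, 26.2 and 29.6 in the tibia (0.20 ± 0.07, adjusted p = 0.100). Mrpl15 was at 30.4, 34.2 and 35.9 CPM in the femur and 35.5, 37.4 and 38.2 in the tibia (0.15 ± 0.06, adjusted p = 0.123). In all 3 the ranges over both mice overlapped, while within a mouse the tibia lay above the femur without overlap in mouse 7 for Mrpl13 and in mouse 19 for Mrpl15 and Mrpl16. The mitochondria-specific Mrpl43 was at 39.4, 44.1 and 45.7 CPM in the femur and 44.5, 47.8 and 49.1 in the tibia (0.13 ± 0.05, adjusted p = 0.119). Mrpl52, also specific to mitochondria, was at 31.8, 37.6 and 39.0 CPM in the femur and 35.1, 40.8 and 46.0 in the tibia (0.17 ± 0.07, adjusted p = 0.144). Mrpl52 overlapped between bones in each mouse, and Mrpl43 overlapped in mouse 7 but not in mouse 19. The start of Mrpl43 lies 116 bases from that of Twnk, the mitochondrial DNA helicase.

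Small-subunit members among the 12 were Mrps14, Mrps15, Mrps35, Mrps12 and Mrps23. Mrps14, a homologue of a bacterial protein, had a lowest, median and highest level of 22.6, 26.8 and 31.4 CPM in the femur and 26.5, 30.9 and 33.9 in the tibia (0.21 ± 0.08, adjusted p = 0.0948). Mrps12, the homologue of the bacterial protein at the decoding centre, was at 16.9, 20.2 and 24.5 CPM in the femur and 20.3, 22.7 and 24.2 in the tibia (0.17 ± 0.07, adjusted p = 0.151). Within a mouse, the tibia lay above the femur without overlap in mouse 19 for Mrps14 and in mouse 7 for Mrps12. Sars2, which starts next to Mrps12, had a change of 0.01 (adjusted p = 0.970). The mitochondria-specific Mrps35 was at 17.0, 18.1 and 22.3 CPM in the femur and 20.2, 20.6 and 26.2 in the tibia (0.19 ± 0.08, adjusted p = 0.135), with the highest value in tibia 1 of mouse 19. Mrps23 was at 36.6, 42.4 and 45.5 CPM in the femur and 42.4, 45.4 and 48.4 in the tibia (0.13 ± 0.05, adjusted p = 0.165). The bones did not overlap in mouse 7 for Mrps35, and they overlapped in both mice for Mrps23.

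**Figure D4:**
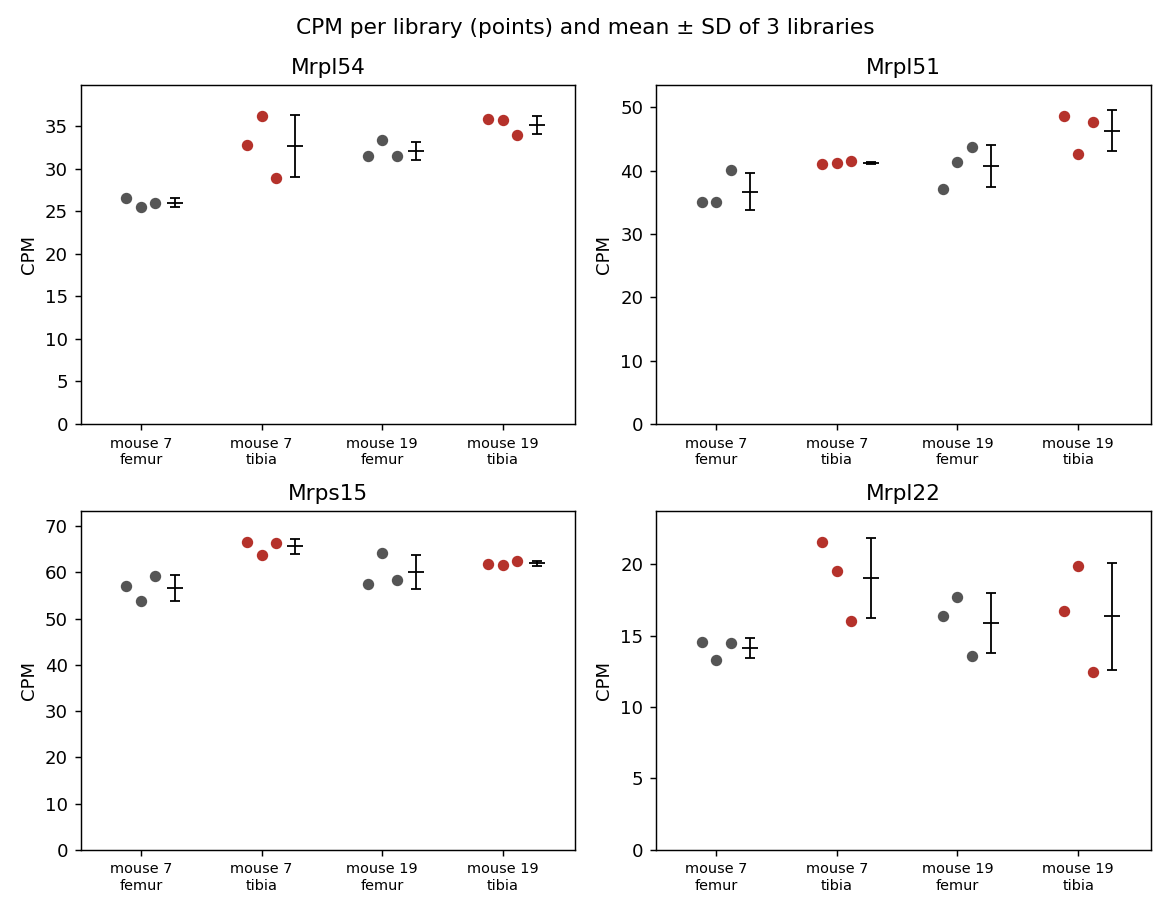
Level in CPM (axes from 0) in each of the 12 libraries for Mrpl54, Mrpl51, Mrps15 and Mrpl22, grouped by mouse and bone, with the mean and SD of 3 libraries beside the points. Mrpl54 is the one panel in which the tibia libraries lie above all femur libraries of their mouse in both mice.

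Other members with high or low levels gave smaller or less precise changes. Mrpl4 had a log2 change of -0.01, Mrpl10 of 0.04 (adjusted p = 0.640) and Mrpl18 of 0.11 (adjusted p = 0.205). At the low end, Mrps28 was at 0.07 (adjusted p = 0.801), Mrpl47 at 0.19 (0.477), Mrpl55 at 0.18 (0.292) and Mrps18b at 0.02 (0.943). None of these passed, and their SEs were 0.05 for the first 3 and 0.10 to 0.14 for the other 4. Mrp63, an older name of a large-subunit gene that the naming rule leaves out, was at 33.8 CPM with a change of -0.05 ± 0.07 (adjusted p = 0.763).

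The mice were next taken 1 at a time. In mouse 7, 3 members were called higher (3.95%, against 4.37% of all genes tested) and 0 lower (against 5.36%): Mrpl54, Mrps15 and Mrpl22. The median change of the members was 0.10, and 63 of 76 lay above 0 (82.9%, against 48.1% of all genes). At an unadjusted p under 0.05, 11 were higher (14.5%, against 10.8% of all genes) and 0 lower (against 12%). Tibia and femur libraries did not overlap, with the tibia above, in 17 members (22.4%, against 12.2% of all genes), and with the tibia below in 0 (against 14.4%). In mouse 19, 0 members were called higher (against 2.96%) or lower (against 2.21%). At an unadjusted p under 0.05, 6 were higher (7.89%, against 8.85%) and 0 lower (against 8.33%). DESeq2 likewise called 0 there, with 6 at an unadjusted p under 0.05. The median was 0.06, 59 lay above 0 (50.3% of all genes did), and the bones separated with the tibia above in 7 members (9.21%, against 10.8%) and below in 2, Mrpl24 and Mrpl53 (2.63%, against 10.3%). A change above 0 in each mouse was found in 52 members (68.4%, against 27.6% of all genes), and below 0 in each in 6 (against 29.2%).

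Mrps15, whose bacterial homologue binds ribosomal RNA early in assembly, lies at chr4:126046928-126055536. It was at 57.1, 53.7 and 59.3 CPM in the femur of mouse 7 and 66.7, 63.8 and 66.4 in its tibia, with no overlap. In mouse 19 it was at 57.5, 64.3 and 58.4 CPM in the femur and 61.9, 61.5 and 62.5 in the tibia, where femur 2 was highest. The change was 0.21 ± 0.06 in mouse 7 (adjusted p = 0.0218), 0.04 in mouse 19 (adjusted p = 0.791) and 0.13 ± 0.05 over both (adjusted p = 0.0957). Mrpl22, whose bacterial homologue lines the tunnel through which the new chain leaves, lies at chr11:58170043-58179580. It was at 14.5, 13.3 and 14.5 CPM in the femur of mouse 7 and 21.6, 19.5 and 16.1 in its tibia. In mouse 19 it was at 16.4, 17.7 and 13.6 CPM in the femur and 16.7, 19.9 and 12.4 in the tibia, with the bones overlapping. Its change was 0.43 ± 0.14 in mouse 7 (adjusted p = 0.0458), 0.05 in mouse 19 (adjusted p = 0.917) and 0.24 ± 0.11 over both (adjusted p = 0.202).

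Each of these mouse 7 calls was lost without 1 or more single libraries. Mrps15 was lost without tibia 1 (adjusted p = 0.0716), tibia 3 (0.0874), femur 1 (0.0630) or femur 2 (0.134) of that mouse, and Mrpl54 without tibia 2 (0.104). Mrpl22 was lost without tibia 1 (0.200), tibia 2 (0.130), femur 1 (0.0948), femur 2 (0.157) or femur 3 (0.0785) of mouse 7, or tibia 1 of mouse 19 (0.0511). The number called in mouse 7 fell to 1 without tibia 2, femur 1 or femur 2, and the members' median fell to 0.06 without femur 2, in which the members' sum was lowest (1937 CPM, against 2040 and 2113 in the other femur libraries of that mouse).

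Testing the mice against each other called 0 members in either direction, against 2.89% of all genes with a larger change in mouse 19 and 1.85% with a smaller one. At an unadjusted p under 0.05 it was 1 member, Mrpl53, lower in mouse 19 (0.19 in mouse 7 and -0.27 in mouse 19, adjusted p = 0.217), against 6.96% of all genes, and 0 were higher, against 8.33%. The median difference, mouse 19 minus mouse 7, was -0.05 for both subunits, and 27 of 76 members lay above 0 (51.4% of all genes did). It moved to -0.01 without femur 2 of mouse 7. Of the 30 cell cycle genes, 23 were called higher in the tibia of mouse 7, 0 higher and 3 lower in mouse 19, and the difference itself passed for 21 of 30.

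**Figure D5:**
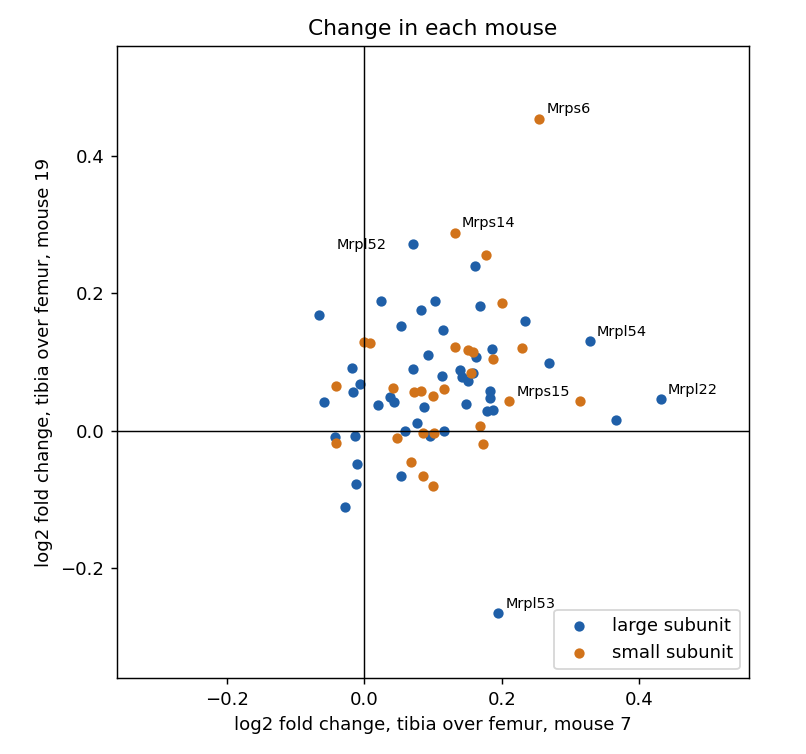
Log2 change, tibia over femur, of each member in mouse 7 (horizontal) and mouse 19 (vertical), coloured by subunit, with lines at 0. In 52 members both values are above 0 and in 6 both are below; the 3 members called in mouse 7 are named, together with Mrpl53, Mrps6, Mrpl52 and Mrps14 at the edges of the cloud.

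Other genes of the mitochondrial translation pathway were described with the same fit. Of 6 mitoribosome subunits with other names 0 were called, with a median of 0.04: Ptcd3, an RNA-binding small-subunit protein, was at 0.09 (adjusted p = 0.433), Gadd45gip1 at -0.10 (0.480) and Chchd1 at 0.09 (0.527). Of 26 assembly and ribosomal RNA modification factors 0 were called and the median was 0.04. The nearest to the threshold were Fastkd2, which binds the large ribosomal RNA (0.38, adjusted p = 0.0725), Mpv17l2 (0.21, 0.0923) and the helicase Dhx30 (-0.12, 0.0962). Of 15 translation factors 1 was called higher, Guf1, the mitochondrial homologue of elongation factor LepA. Its level rose from 14.1 ± 2.11 to 17.7 ± 2.30 CPM (SD, n = 6), a log2 change of 0.32 ± 0.09 (adjusted p = 0.0271). The elongation factor Gfm1 was at 0.15 (0.106) and Lrpprc, which stabilises mitochondrial messenger RNAs, at 0.07 (0.423). Of 20 aminoacyl-tRNA synthetases and amidotransferase genes 1 was called higher, Rars2, the arginyl-tRNA synthetase (16.7 to 19.7 CPM, 0.24 ± 0.07, adjusted p = 0.0342). Qrsl1 was at 0.30 (0.0886) and Wars2 at -0.24 (0.170). The call of Guf1 was lost in 5 and that of Rars2 in 7 of the 12 fits that left out 1 library, with adjusted p up to 0.0778 and 0.0791.

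Of 14 tested genes of mitochondrial transcription and its nuclear regulators 0 passed, 2 were lower at an unadjusted p under 0.05, and the median was -0.02. Ppargc1b, a coactivator of mitochondrial gene programmes, was at -0.69 (adjusted p = 0.119), Gabpb2 at -0.09 (0.146) and Pprc1 at -0.10 (0.363). The factors whose motifs were searched were named for that reason, after their values were seen: Gabpa was at 0.05 (adjusted p = 0.491), Nrf1 at -0.05 (0.631) and Yy1 at -0.01 (0.918). Members with an ETS core in the promoter had a median change of 0.11 and those without one 0.07, and for the YY1 core the values were 0.11 and 0.07. For the nuclear respiratory factor 1 part site they were 0.04 with and 0.10 without, and for the E-box 0.06 and 0.08. Members with and without a gene start upstream on the opposite strand had 0.10 and 0.07. Of the 22 tested partner genes that are not members, 1 was called higher and 0 lower, with a median of 0.01. The 1 called was Psma2, a proteasome subunit that starts next to Mrpl32 (0.21 ± 0.04, adjusted p = 8.8e-04).

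Nuclear genes of the respiratory chain and ATP synthase, the complexes that mitochondrial translation helps to build, were read against the same background of 3.51%. In complex I, which takes electrons from NADH, 6 of 35 were higher and 0 lower (median 0.09), led by Ndufb6 (0.27, adjusted p = 0.0200), Ndufb9 (0.17, 0.0214) and Ndufv2 (0.15, 0.0247). In complex II, the one with no mitochondrially encoded subunit, 0 of 4 were called (median 0.09), with Sdhc nearest (0.14, adjusted p = 0.0676). In complex III 2 of 9 were higher (median 0.10): Cyc1 (0.14, adjusted p = 0.0442) and Uqcrfs1 (0.12, 0.0481). In complex IV, cytochrome c oxidase, 4 of 10 were higher (median 0.14), led by Cox5a (0.23, adjusted p = 0.00111), Cox5b (0.17, 0.00805) and Cox7b (0.17, 0.00888). In ATP synthase 4 of 15 were higher (median 0.09), led by Atp5g3 (0.26, adjusted p = 3.2e-04), Atp5g1 (0.33, 7.7e-04) and Atp5b (0.13, 0.0187). None of these lists had a gene called lower. Taken 1 mouse at a time, mouse 7 had 3 called higher in complex I, 1 in complex II and 4 in complex III. It had 4 in complex IV and 6 in ATP synthase (against 4.37% of all genes). Mouse 19 had 1 in complex IV, 2 in ATP synthase and 0 in the other lists (against 2.96%). The difference between the mice passed for 0 genes of these lists.

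Of the cytosolic ribosomal proteins, 2 of 45 large-subunit genes were higher (Rpl14, 0.13, adjusted p = 0.0141, and Rpl12, 0.12, 0.0273), with a median of 0.05 and 0 called lower. Among the 32 small-subunit genes, with a median of 0.05 and 0 called lower, Rps2 was higher (0.18, adjusted p = 0.00828). Of 30 cell cycle genes 3 were higher over both mice: Gins2, Rrm2 and Ccne1. Of the 25 pathway genes called over both mice, 7 were called in each of the 12 fits without 1 library: Cox5a, Cox5b, Cox7b, Atp5g3, Atp5g1, Rpl14 and Rps2. With counts summed per animal and bone 0 of the 25 passed, where 0.407% of all genes were called higher.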

How the data were processed

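Macrophage RNA of 12 libraries was read as whole-number counts per gene in 1 table deposited by the authors. Per the submitters' processing notes the build was mm10 and the tools were bcl2fastq, HISAT2, featureCounts, Subread and DESeq2; the sources used here do not give versions, settings, strand handling or annotation. Reads of overlapping genes therefore cannot be separated. The table matched 12 of 12 samples by title.

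Genes were tested with edgeR 4.0.16 (R 4.3.3, limma 3.58.1): filterByExpr over the 4 groups with a minimum count of 10, TMM scaling, quasi-likelihood test with the mouse as a term, Benjamini-Hochberg adjustment over 11806 genes, and calls at an adjusted p under 0.05. Single-mouse values and their difference came from a fit of the 4 group means. CPM used TMM-scaled library sizes, and levels per kilobase the union of exons in the GENCODE M21 basic annotation (GRCm38, the same assembly as mm10). The edgeR fit was tested on simulated counts. The DESeq2 fit and the promoter, exon overlap and summary steps were not part of that test. Alternatives were DESeq2 1.42.0, RLE size factors, no filter, a filter of 5 CPM in 3 libraries, a replicate block, no mouse term, halved counts, counts summed per animal and leaving out each library.

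Members and gene lists were chosen with earlier results of these data known. Members named are those called, the 5 highest and 5 lowest in CPM, and the 12 with the smallest adjusted p, whose values are given per library or as lowest, median and highest; lists name up to 3 genes by adjusted p. Other genes were named after their values were seen, such as members at the ends of a range, members called in 1 mouse, promoter partners and markers. Some results for single genes of the lists are not reported here.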

Additional observations from a re-analysis of the deposited data

Results flagged for a closer look

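Of 52 groups of 6 libraries looked at, 2 held a library that stood apart, with Dixon's ratio of the gap to the range above its 95% critical value for 6 libraries; chance alone gives about 1 in 20. Mrps35 in tibia 1 of mouse 19 was at 26.2 CPM, against 20.2 to 21.4 CPM in the other 5 tibia libraries, a ratio of 0.790. The summed small-subunit level in tibia 2 of mouse 19 was 761 CPM, against 708 to 727 CPM in the other 5, a ratio of 0.641.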

How the results depend on the processing

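No member was called lower in any alternative run, and none differed between the mice where that difference was tested. It was not tested with the replicate block, with no mouse term or with counts summed per animal. The number of members called higher over both mice, 1 in the report, was 2 with DESeq2 (Mrpl51, Mrpl54), 3 with no filter on low counts, 2 with a filter of 5 CPM, 2 with halved counts, and 0 with no mouse term or with counts summed per animal (14 and 6 at an unadjusted p under 0.05). Leaving out 1 library at a time gave 0 to 2 over both mice, 1 to 3 in mouse 7 and 0 to 1 in mouse 19, where no filter gave 2 (Mrpl52, Mrps14). Mrpl54 was called in 12 of 20 alternatives, with adjusted p from 0.0125 to 0.358 and a log2 change from 0.18 to 0.25. The median change stayed between 0.07 and 0.11 for the large subunit and 0.07 and 0.10 for the small. The cause of these moves was not tested. Over all genes the calls, 414 higher and 436 lower, were 50 and 24 with no mouse term, 48 and 17 with sums per animal, 564 and 556 with no filter.

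Groups share replicate numbers, but same-numbered libraries did not deviate together: the 6 correlations of their deviations ran from -0.047 to 0.00059, and no tibia library correlated best with the femur library of its own number. With a replicate block 0 members were called higher over both mice (14 at an unadjusted p under 0.05; Mrpl54 adjusted p = 0.0606), and over all genes 239 were higher and 256 lower. Precision is limited by having 2 animals.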
